A study of Mus musculus with 4 samples.

Results

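The MYC and MAX network is a small family of transcription factors that meet on the same DNA. MYC and N-MYC pair with MAX, bind the E-box and activate genes of growth and division. MXD1, MXD3, MXD4, MXI1, MNT and MGA also pair with MAX, bind the same E-box and repress: the MXD proteins, MXI1 and MNT bring the SIN3 and histone deacetylase complex, and MGA belongs to the polycomb complex PRC1.6. MLX is a second hub that pairs with MXD1, MXD4, MNT and the glucose-responsive factor MondoA. In blood formation MYC is known for controlling the balance between self-renewal and differentiation of stem cells and the expansion of lymphoid precursors, and the MXD genes are known for being switched on as cells differentiate. The 10 genes Myc, Mycn, Max, Mxd1, Mxd3, Mxd4, Mxi1, Mnt, Mga and Mlx were chosen by symbol, out of 12417 gene symbols kept and 12750 in all. Of these 10 genes, 7 were listed in all 4 libraries. WT HSC, WT CLP and the HSC library labelled GRK6-/- listed 9 each, and the CLP library labelled GRK6-/- listed 8.

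The study asked what loss of the kinase GRK6, which turns off G protein-coupled receptors, does to blood formation, and sequenced mRNA of 2 bone marrow populations of C57BL/6 mice. Hematopoietic stem cells (HSC) were sorted as Lin-, c-kit+ and sca-1+, and common lymphoid progenitors (CLP) by the same 3 markers plus Il-7Ra, so the HSC gate left Il-7Ra unused. WT mice and littermates that lack exons 3 to 9 of Grk6 in every cell gave 1 library per population and genotype, and mice of the study were 8 to 12 weeks old unless it stated otherwise. Each library pooled 13 to 15 cells from 3 to 4 mice, whose cDNA was primed at the poly(A) tail and amplified cell by cell by 20 and then 10 PCR cycles.

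With 1 library per group there is no spread between replicates, so no difference was tested. Levels are FPKM, which count fragments scaled to transcript length and to the mapped fragments of the library. A log2 ratio is that of FPKM + 1, with a gene without a row taken as 0, and "past 2-fold" means a log2 ratio of at least 1 in either direction. About 2710000 to 4470000 fragments stood behind a library, as estimated from the steps of its lowest values. These estimates are lower than the number of reads that the methods give for a library, so the fragments behind a value may be too few and the intervals too wide. Intervals of 95% given below are exact binomial ones for the log2 ratio of FPKM from the estimated fragments, cover counting error only, and so leave out the variation between cells and the amplification. Those of the antagonist ratio come from a normal approximation to the same fragments. Where 4 values stand in a row they follow the order of HSC from WT, HSC from mice labelled GRK6-/-, CLP from WT and CLP from mice labelled GRK6-/-, called the library order. Grk6 was at 42.7, 89.4, 26.9 and 57.6 FPKM in library order. It was thus higher in both libraries labelled GRK6-/-, and since 1 value per gene does not separate the deleted exons from the others, it does not check the labels. Each direction of genotype given below therefore rests on the library labelled GRK6-/-.

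Marker genes set the libraries apart. The 7 lymphoid progenitor genes summed to 168 FPKM in WT HSC and 118 FPKM in the library labelled GRK6-/- HSC, against 2756 FPKM in WT CLP and 1992 FPKM in the library labelled GRK6-/- CLP. Il7r had no row in WT HSC and stood at 1.08, 120 and 75.1 FPKM in the other 3 libraries, in the same order. Kit ranged from 26.2 to 81.8 FPKM, whereas Ly6a, which encodes Sca-1, had no row of its own in any library and stood in WT HSC only in a row shared with other Ly6 genes, which was left out. The 10 erythroid genes summed to 38.2 FPKM in WT HSC, 746 FPKM in the library labelled GRK6-/- HSC, 19.8 FPKM in WT CLP and 17584 FPKM in the library labelled GRK6-/- CLP, of which 17220 FPKM were Hba-a2. The 8 B lineage genes summed to 41.9, 35.5, 285 and 1484 FPKM in library order, the 10 myeloid genes to 17848, 11340, 9385 and 7855 FPKM, and the 5 megakaryocyte genes to 149, 13.1, 13.5 and 117 FPKM. In pooled cells, fewer cells of a type and less RNA per cell cannot be told apart.

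The DNA-binding part of each protein is the basic region, and its coding sequence sets the MXD genes, Mxi1 and Mnt apart. Shown here are stretches of 39 bases from the mm9 genome, 5′ to 3′ on the coding strand, for both MYC genes, for MAX and for 4 antagonists of different kinds. Capitals mark the codons of the histidine, glutamate and arginine that touch the E-box.
Myc: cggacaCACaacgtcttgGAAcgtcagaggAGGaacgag
Mycn: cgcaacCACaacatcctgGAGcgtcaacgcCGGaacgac
Max: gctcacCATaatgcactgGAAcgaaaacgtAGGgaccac
Mxd4: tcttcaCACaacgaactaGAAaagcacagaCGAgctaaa
Mxi1: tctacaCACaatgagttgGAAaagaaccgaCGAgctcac
Mnt: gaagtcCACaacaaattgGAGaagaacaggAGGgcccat
Mga: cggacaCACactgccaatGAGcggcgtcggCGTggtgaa
Each stretch was found by these 3 residues, their spacing and a further arginine just before the marked one. This pattern occurs once in each of the 10 proteins. The Myc stretch lies in exon 3 of 3 (chr15:61821212-61821250, plus strand), that of Mycn in exon 3 of 3 (chr12:12944019-12944057, minus strand), that of Max in exon 3 of 5 (chr12:78054213-78054251, minus strand) and that of Mga in exon 20 of 24 (chr2:119783977-119784015, plus strand). In Mxd4 (chr5:34521564-34526991, minus strand), Mxi1 (chr19:53420942-53444041, plus strand) and Mnt (chr11:74650946-74651123, plus strand) the stretch is split by an intron between exons 3 and 4. The same junction splits it in Mxd1 and Mxd3. These 5 genes with the split were 56.4% to 82.1% identical to each other over the stretch, with a median of 67.9%. They were 33.3% to 56.4% identical to Myc, Mycn, Max, Mga and Mlx, with a median of 48.7%. Myc, Mycn, Max, Mga and Mlx were 38.5% to 71.8% identical to each other, with a median of 51.3%, so they do not form a second group by this measure. Mga thus lacks the intron that splits the stretch in the other antagonists.

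Myc was the highest network gene in 3 of the 4 libraries, and Mycn took a part of the MYC signal that differed widely. Myc was at 41.0 FPKM in WT HSC, 129 FPKM in the library labelled GRK6-/- HSC, 81.6 FPKM in WT CLP and 21.3 FPKM in the library labelled GRK6-/- CLP. The genotypes therefore stood in opposite order in the 2 populations, and the highest value was 6.06-fold the lowest. Mycn, the paralog best known from neural tissue and also used by stem cells, was at 7.62 FPKM in WT HSC, 7.26 FPKM in the library labelled GRK6-/- HSC and 16.6 FPKM in the library labelled GRK6-/- CLP, with no row in WT CLP. The HSC values lay within counting error of each other. Mycn made up 15.7%, 5.31%, 0% and 43.8% of the summed Myc and Mycn FPKM in library order. Where Myc was lowest, its paralog was thus near its level, at 16.6 against 21.3 FPKM. A missing row is not rare at this level: of 3278 genes at 5 to 20 FPKM in the library labelled GRK6-/- CLP, 372 (11.3%) had no row in WT CLP.

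**Figure D1:**
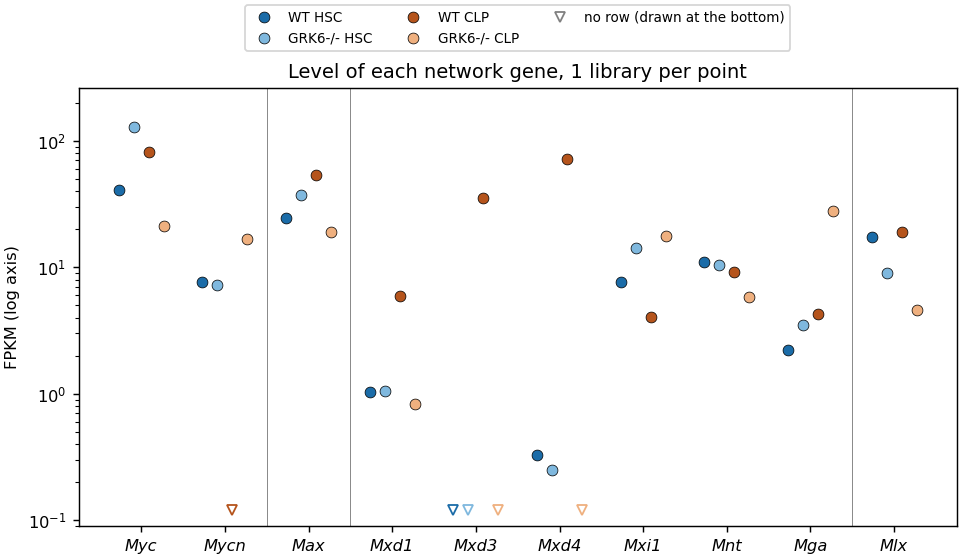
FPKM (log axis) of the 10 network genes, 1 point per library, with the MYC genes, Max, the antagonists and Mlx separated by vertical lines and open triangles for a gene without a row. Myc is the top gene in both HSC libraries and in WT CLP, Mxd3 and Mxd4 reach 35.2 and 72.1 FPKM in WT CLP and are at or near 0 elsewhere, and Mga reaches 28.0 FPKM in the library labelled GRK6-/- CLP.

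Both hubs were listed in every library. Max, the partner that MYC requires and that the antagonists also use, was at 24.7 FPKM in WT HSC, 37.4 FPKM in the library labelled GRK6-/- HSC, 53.9 FPKM in WT CLP and 18.9 FPKM in the library labelled GRK6-/- CLP. It varied less than Myc, with a highest value 2.85-fold the lowest. Mlx was at 17.4 and 9.0 FPKM in the HSC libraries of WT and labelled GRK6-/-, and at 18.9 and 4.57 FPKM in the CLP libraries. It was thus lower in the library labelled GRK6-/- of either population, and the 2 WT libraries lay within counting error of each other. The locus of Mlx overlaps that of Psmc3ip on the opposite strand by 385 bases (628 as deposited for WT CLP), and strandedness is not given in the sources used here, so reads of the pair cannot be told apart there. The summed FPKM of Myc, Mycn and the 6 antagonists was 2.87 times that of Max in WT HSC, 4.44 times in the library labelled GRK6-/- HSC, 3.94 times in WT CLP and 4.76 times in the library labelled GRK6-/- CLP.

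The 4 genes of the MXD type (Mxd1, Mxd3, Mxd4 and Mxi1) differed among themselves. Mxd1, known for rising as myeloid cells mature, was at 1.03 FPKM in WT HSC, 1.05 FPKM in the library labelled GRK6-/- HSC, 5.97 FPKM in WT CLP and 0.836 FPKM in the library labelled GRK6-/- CLP. It was thus highest in WT CLP and rested on only about 11 to 19 fragments in each of the others. Mxd3, the MXD gene known for its expression in dividing cells, was listed in WT CLP alone, at 35.2 FPKM from about 208 fragments, and its locus overlaps Prelid1 on the opposite strand by 104 bases. Mxd4, known from differentiated and quiescent cells, was at 72.1 FPKM in WT CLP from about 374 fragments, at 0.329 FPKM in WT HSC and at 0.248 FPKM in the library labelled GRK6-/- HSC. Each HSC value of Mxd4 came from about 1 fragment, and the gene had no row in the library labelled GRK6-/- CLP. The lower coordinate of the annotated Mxd4 locus was chr5:34518586 in WT CLP and chr5:34519229 in the HSC libraries, so the deposited values may not rest on the same transcripts. The fragments given for Mxd4 assume a transcript of 1160 bases, and its longest coding transcript has 3872, so they and their intervals depend on this choice. At these levels, of 2836 genes at 20 to 100 FPKM in WT CLP, 100 (3.53%) had no row in the library labelled GRK6-/- CLP, and 74 (2.61%) and 58 (2.05%) had none in WT HSC and in the library labelled GRK6-/- HSC.

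Mxi1 went the other way from Mxd1, Mxd3 and Mxd4 in CLP. This gene, a MYC antagonist also induced by hypoxia, was at 7.61 FPKM in WT HSC, 14.3 FPKM in the library labelled GRK6-/- HSC, 4.02 FPKM in WT CLP and 17.6 FPKM in the library labelled GRK6-/- CLP. It was higher in the library labelled GRK6-/- of either population and lowest in WT CLP, where the other 3 MXD-type genes were highest. The Mxi1 locus overlaps that of Gm10197 on the opposite strand by 201 bases. Mnt, the broadly expressed antagonist, was the steadiest member, at 11.04, 10.4, 9.25 and 5.79 FPKM in library order. Its highest value was 1.91-fold its lowest. Mga was at 2.23 FPKM in WT HSC, 3.51 FPKM in the library labelled GRK6-/- HSC, 4.25 FPKM in WT CLP and 28.0 FPKM in the library labelled GRK6-/- CLP. Only in the last did it exceed Myc, by 1.31-fold, and there it was the highest network gene, with about 1055 fragments. Its longest coding transcript of 13931 bases is far longer than the 1160 to 5156 bases used for the other members, and how cDNA primed at the poly(A) tail covers such a length was not tested.

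The summed antagonists were below Myc and Mycn in HSC and above them in CLP, where the side depended on which antagonists were summed. Their summed FPKM was 22.2 in WT HSC, 29.5 in the library labelled GRK6-/- HSC, 131 in WT CLP and 52.2 in the library labelled GRK6-/- CLP. The sum of Myc and Mycn was 48.6, 137, 81.6 and 38.0 FPKM in library order. The ratio of antagonists to Myc and Mycn was thus 0.457 in WT HSC, 0.216 in the library labelled GRK6-/- HSC, 1.602 in WT CLP and 1.37 in the library labelled GRK6-/- CLP. Because numerator and denominator come from 1 library, its scaling cancels in this ratio. Of the ratio in the library labelled GRK6-/- over that in WT, the log2 was −1.08 in HSC (counting interval −1.34 to −0.82) and −0.22 in CLP (−0.46 to 0.02). With the MXD-type genes alone it was −0.69 in HSC and −1.57 in CLP, and without Mga it was −1.28 in CLP. Without Mga the ratio itself was 1.55 in WT CLP and 0.638 in the library labelled GRK6-/- CLP. The antagonists other than Mga thus summed to less than Myc and Mycn in the latter. The CLP ratios rested on different genes. Mxd4 made up 55.1% and Mxd3 26.9% of the antagonist FPKM in WT CLP, and neither was listed in the library labelled GRK6-/- CLP, where Mga made up 53.6% and Mxi1 33.7%. In WT HSC Mnt held the largest share, 49.6%, and in the library labelled GRK6-/- HSC Mxi1 did, with 48.6%. Limited to the 4 antagonists listed in all libraries, a choice made after seeing the data, the ratio was 0.451, 0.214, 0.288 and 1.37, so that WT CLP stood below WT HSC and the CLP difference between genotypes turned to a log2 value of 2.26. With Myc alone in the denominator, also chosen after seeing the data, the CLP value was 0.61.

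**Figure D2:**
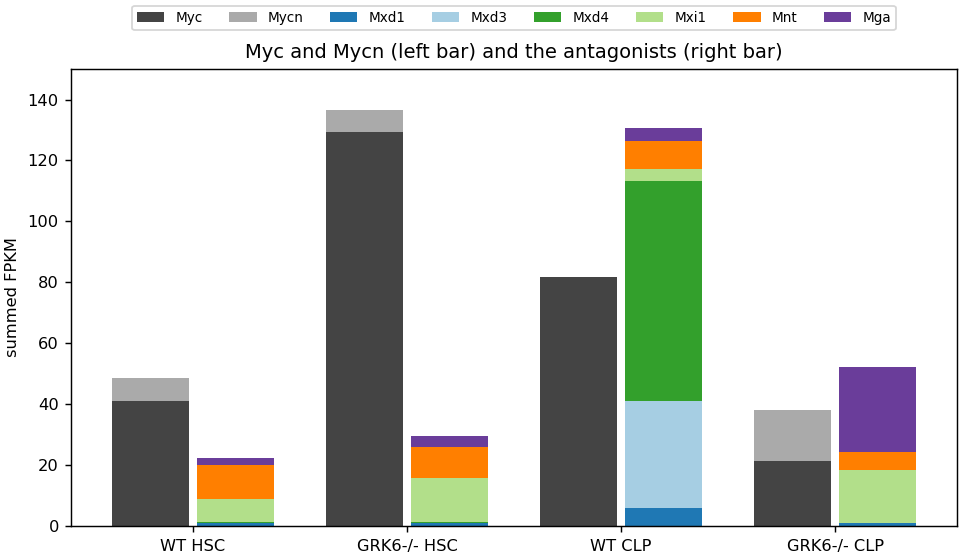
Summed FPKM of Myc and Mycn (left bar) and of the 6 antagonists (right bar) in each of the 4 libraries, stacked by gene. The right bar is lower than the left in both HSC libraries and higher in both CLP libraries, and it is mostly Mxd4 and Mxd3 in WT CLP and mostly Mga and Mxi1 in the library labelled GRK6-/- CLP.

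In HSC, Myc was the only network gene past 2-fold between genotypes. It was 3.15-fold higher in the library labelled GRK6-/- (log2 of the FPKM ratio 1.66, interval 1.47 to 1.85). Of the 9 members with a row, 1 was past 2-fold, beside 37.4% of all 11624 genes, and the median log2 ratio of the members was 0.01 beside 0.05 for all genes. By the log2 ratio of FPKM + 1, Max (0.58), Mxi1 (0.83) and Mga (0.48) were higher and Mlx (−0.88) lower by less than 2-fold, each with a counting interval that excluded 0. Mycn (−0.06), Mnt (−0.08), Mxd1 (0.01) and Mxd4 (−0.09) had intervals that held 0. The Mxd4 interval, from 1 fragment in each library, ran from −6.68 to 5.91, so a difference in Mxd4 was not detectable at this depth. The erythroid sum was also higher in the library labelled GRK6-/- HSC, at 746 against 38.2 FPKM with 6 of 10 genes listed in each. Car1 alone was at 612 against 24.5 FPKM. The megakaryocyte sum was lower, at 13.1 against 149 FPKM with 3 of 5 listed in each. Going the other way, the erythroid gene Slc4a1 was listed only in WT HSC (0.0752 FPKM) and the megakaryocyte gene Ppbp only in the library labelled GRK6-/- HSC (2.20 FPKM). The part of these sums in the Myc value was not tested.

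In CLP, nearly every network gene was past 2-fold between genotypes, and in both directions. Mga was 6.57-fold higher in the library labelled GRK6-/- (log2 of the FPKM ratio 2.72, interval 2.52 to 2.91), and Mxi1 was 4.37-fold higher (2.13, 1.77 to 2.48). Myc was 3.82-fold lower (−1.93, −2.21 to −1.67) and Max 2.85-fold lower (−1.51, −1.83 to −1.20). Mlx was 4.14-fold lower (−2.05, −2.75 to −1.45) and Mxd1 7.14-fold lower (−2.84, −3.81 to −1.88). Mycn (4.14), Mxd3 (−5.18) and Mxd4 (−6.19) each lacked a row in 1 of the 2 libraries, so their log2 ratios of FPKM + 1 depend on the added 1 FPKM and give no fold. Mnt was within 2-fold (log2 ratio −0.59). In all, 9 of 10 members were past 2-fold, 3 higher and 6 lower, beside 50.0% of all 11191 genes, and their median log2 ratio was −1.65 beside 0.05 for all genes. The erythroid, B lineage and megakaryocyte sums were higher in the same library, at 17584 against 19.8 FPKM, 1484 against 285 FPKM and 117 against 13.5 FPKM. There 7 of 10 erythroid, 7 of 8 B lineage and 4 of 5 megakaryocyte genes were listed, with the B lineage gene Vpreb2 lower, at 4.75 against 70.6 FPKM, and Hba-a1, Hbb-b1, Hbb-b2 and Pax5 without a row. Their part in the network values was not tested.

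**Figure D3:**
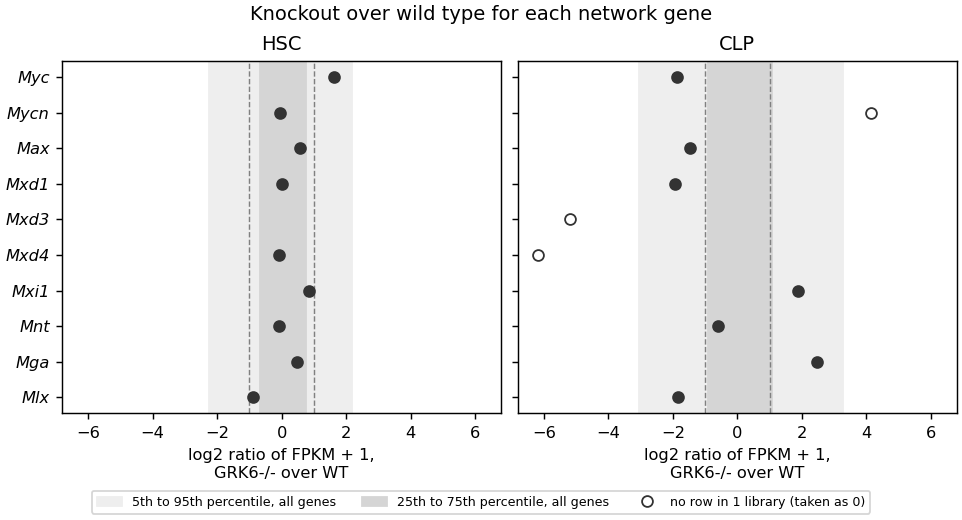
log2 ratio of FPKM + 1 of each network gene, library labelled GRK6-/- over WT, in HSC (left) and CLP (right), with dashed lines at 2-fold, grey bands for all genes and open circles where 1 library had no row. In HSC all points but Myc lie between the dashed lines, whereas in CLP only Mnt does.

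Between populations, WT CLP had a higher antagonist sum than WT HSC, mostly from Mxd4 and Mxd3, at a Myc level 1.99-fold higher. Mxi1 was lower in WT CLP (4.02 against 7.61 FPKM), Mnt was within counting error (9.25 against 11.04 FPKM) and Mga was higher (4.25 against 2.23 FPKM). Limited to the 4 antagonists listed in all libraries, a choice made after seeing the data, the antagonist ratio was lower in WT CLP, at 0.288 against 0.451. Mxd3 was listed in WT CLP alone, Mxd4 was 219-fold higher there (log2 of the FPKM ratio 7.78, interval 5.47 to 13.26, against about 1 fragment), and Mxd1 was 5.81-fold and Max 2.18-fold higher. Mycn was the 1 member past 2-fold the other way, with 7.62 FPKM in WT HSC and no row in WT CLP. That made 5 of 10 members past 2-fold beside 46.5% of all genes, which is near that share. Between the libraries labelled GRK6-/-, CLP showed 7.96-fold more Mga and 2.29-fold more Mycn than HSC and 6.06-fold less Myc, while Max, Mlx, Mnt, Mxi1 and Mxd1 were within 2-fold. Here 3 of 9 members were past 2-fold beside 45.6% of all genes. The 4 comparisons use each library in 2 of them, so they are not independent of each other.

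Outside the 10 genes, the network has a further MYC paralog and the partners of MLX. Mycl1, which encodes L-MYC, was at 0.0991 FPKM in WT HSC (about 1 fragment), had no row in the library labelled GRK6-/- HSC, and was at 11.8 and 5.65 FPKM in the CLP libraries of WT and labelled GRK6-/-. It thus appeared with the CLP libraries. Between their genotypes its log2 ratio of FPKM + 1 was −0.95, short of 2-fold, while its FPKM was 2.10-fold lower in the library labelled GRK6-/-. Mlxip, which encodes MondoA, was at 8.19, 7.80, 6.90 and 3.26 FPKM in library order. Mlxipl, which encodes the liver-enriched carbohydrate response factor, had no row in any library. Both the hub Mlx and its partner Mlxip were thus lowest in the library labelled GRK6-/- CLP.

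Some network genes carry the E-box in their own promoters. The windows searched span 300 bases, most of them before the start annotated in RefSeq (GRCm38.p6), and each stretch shown was placed on mm9 by an exact match. The motif CACGTG reads the same on both strands, and capitals mark it here in the 4 members that hold it.
Mxd4: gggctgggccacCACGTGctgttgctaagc
Mnt: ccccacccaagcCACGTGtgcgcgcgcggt
Mlx: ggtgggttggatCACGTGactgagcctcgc
Max: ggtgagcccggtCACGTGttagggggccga
They lie upstream of Mxd4 (chr5:34530561-34530590, minus strand), Mnt (chr11:74644291-74644320, plus strand) and Mlx (chr11:100948552-100948581, plus strand), and across the start of Max (chr12:78063221-78063250, minus strand). Mycn, Mxd1, Mxd3, Mxi1 and Mga had no match in their windows, and Myc has no window in the table. The motif was thus found in 4 of 9 members, 2 of them antagonists, beside 8.09% of 27025 genes with a window and 24.1% of 79 MYC target genes with one. Of the 4 genes that hold it, Mxd4, Max and Mlx were highest in WT CLP and Mnt in WT HSC. All 4 were lowest in the library labelled GRK6-/- CLP, where Mxd4 had no row. Of the members without a match, Mxd1 was likewise highest in WT CLP and lowest in that library, and Mxd3 was listed in WT CLP alone. Mycn, Mxi1 and Mga, also without a match, were highest in the library labelled GRK6-/- CLP. The order is thus not particular to genes with the motif. A match is a description of the letters and says nothing of binding.

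The SIN3 complex, through which the MXD proteins, MXI1 and MNT repress, was listed with 13 of its 14 genes. In HSC 3 were past 2-fold higher and 2 lower, with a median log2 ratio of 0.49, and in CLP 1 was higher and 3 lower, with a median of −0.51. Over all genes, 19.3% were higher and 18.04% lower in HSC, and 26.6% higher and 23.4% lower in CLP, with a median of 0.05 in each. Hdac2, a deacetylase of the complex, was at 73.4 FPKM in WT HSC and 22.0 FPKM in the library labelled GRK6-/- HSC, and the scaffold Sin3a was at 16.8 and 6.27 FPKM. The subunits Arid4b (2.67 and 11.9 FPKM) and Sap30 (4.91 and 15.9 FPKM) stood in the opposite order. In CLP the histone-binding subunit Rbbp4 was at 13.6 FPKM in WT and 36.1 FPKM in the library labelled GRK6-/-, and Arid4a at 22.0 and 6.42 FPKM. The complex thus had members on both sides in both populations.

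PRC1.6, the complex of MGA, was listed with all 12 genes, of which 5 were past 2-fold higher and 1 lower in CLP (41.7% and 8.33%, beside 26.6% and 23.4% of all genes), with a median log2 ratio of 0.34. E2f6, its E2F subunit, was at 5.56 FPKM in WT CLP and 31.9 FPKM in the library labelled GRK6-/- CLP. Rnf2, the ubiquitin ligase RING1B, was at 7.58 and 24.0 FPKM. The methyltransferase gene Ehmt2 was lower, at 35.3 and 13.5 FPKM. In HSC 2 genes of the complex were higher and 3 lower (16.7% and 25%, beside 19.3% and 18.04% of all genes, median −0.25), with Ehmt1, a histone methyltransferase, at 7.49 FPKM in WT and 47.3 FPKM in the library labelled GRK6-/-, and Yaf2 at 36.2 and 7.16 FPKM. The genes named from this list and from those that follow are those with the highest and lowest ratios, so their sides were set by the choice.

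Genes whose products work with MYC or set its turnover stood on both sides. Of 15 coactivators and partners, 3 were past 2-fold higher and 3 lower in HSC (median 0.05), and 1 higher and 6 lower in CLP (median −0.60). That was 20.0% and 20.0% in HSC beside 19.3% and 18.04% of all genes, and 6.67% and 40.0% in CLP beside 26.6% and 23.4%. Ep300, an acetyltransferase, was at 0.269 FPKM in WT HSC and 10.8 FPKM in the library labelled GRK6-/- HSC. Paf1, of the elongation complex that MYC contacts, was lower in the library labelled GRK6-/- of either population, at 102 and 16.7 FPKM in HSC and 27.2 and 8.06 FPKM in CLP. Ccnt1, the cyclin that drives release of paused polymerase, was at 27.1 FPKM in WT CLP and 7.33 FPKM in the library labelled GRK6-/- CLP. Of 16 listed regulators of MYC turnover, 3 were higher and 4 lower in HSC, and 2 higher and 7 lower in CLP (median −0.51). Their shares were 18.8% and 25% in HSC and 12.5% and 43.8% in CLP, beside the shares of all genes just given. Usp28, a deubiquitinase that stabilises MYC, was at 2.32 FPKM in WT HSC and 22.2 FPKM in the library labelled GRK6-/- HSC. Gsk3a, a kinase that marks MYC for degradation, was at 118 FPKM in WT CLP and 15.1 FPKM in the library labelled GRK6-/- CLP, and Usp36, a further MYC deubiquitinase, at 11.1 and 1.38 FPKM. Pim2, a kinase that stabilises MYC, was at 12.01 and 172 FPKM there.

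Known MYC target genes, as a group, had medians close to those of all genes. Of 91 targets, 85 were listed. In HSC, where Myc was 3.15-fold higher in the library labelled GRK6-/-, 16 were past 2-fold higher and 9 lower (18.8% and 10.6%, beside 19.3% and 18.04% of all genes), with a median log2 ratio of 0.16. In CLP, where Myc was 3.82-fold lower in that genotype, 17 were higher and 16 lower (20.0% and 18.8%, beside 26.6% and 23.4%), with a median of 0.06. The medians of all genes were 0.05 in each. Among the 63 listed biosynthesis targets, 15 were higher and 7 lower in HSC. Eif3b, a translation initiation factor, was at 73.1 FPKM in WT HSC and 403 FPKM in the library labelled GRK6-/- HSC, and the nucleotide synthesis gene Ctps at 7.03 and 25.8 FPKM, whereas the RNA helicase gene Ddx18 was at 77.3 and 20.5 FPKM. Hspd1, a mitochondrial chaperonin, was at 74.8 FPKM in WT HSC and had no row in the library labelled GRK6-/- HSC. In CLP, 11 biosynthesis targets were higher and 10 lower. The nucleolar genes Gnl3 and Ncl stood in opposite order, Gnl3 at 56.4 FPKM in WT and 754 FPKM in the library labelled GRK6-/-, and Ncl at 2704 and 34.0 FPKM. Ppat, the first enzyme of purine synthesis, had no row in WT CLP and stood at 24.1 FPKM in the library labelled GRK6-/- CLP.

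**Figure D4:**
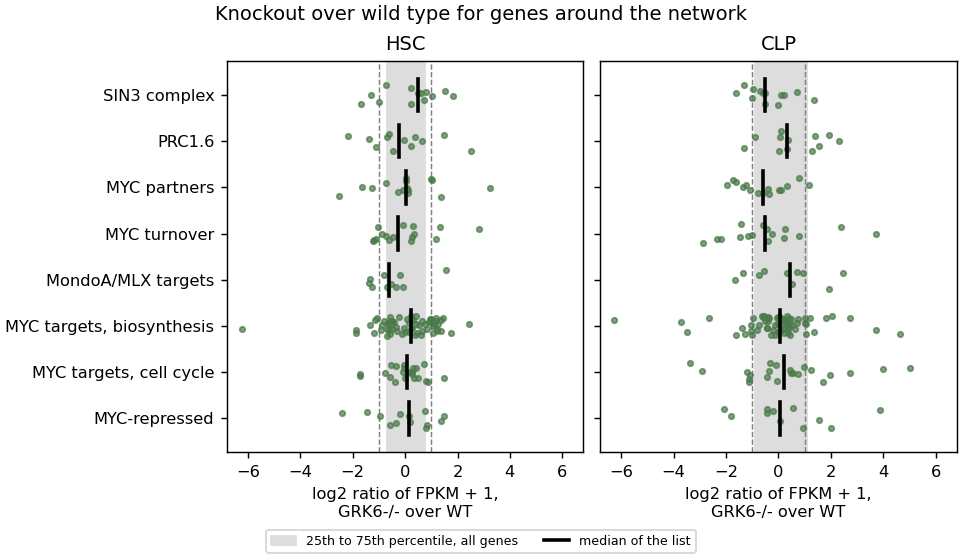
log2 ratio of FPKM + 1, library labelled GRK6-/- over WT, of the genes in 8 lists around the network in HSC (left) and CLP (right), 1 point per gene, black bars for list medians, a grey band for the middle of all genes and dashed lines at 2-fold. List medians lie between −0.61 and 0.49 in both populations, with genes on both sides of 0 in every list.

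Of 22 listed cell cycle targets, 1 was past 2-fold higher and 2 lower in HSC (4.55% and 9.09%, beside 19.3% and 18.04% of all genes). In CLP 6 were higher and 6 lower (27.3% and 27.3%, beside 26.6% and 23.4%), which is near the share of all genes. E2f1, a driver of S phase entry, was at 0.757 FPKM in WT CLP and 55.8 FPKM in the library labelled GRK6-/- CLP, and Ccne1, the cyclin of the same step, at 0.608 and 24.9 FPKM. The mitotic cyclin gene Ccnb1 was at 43.3 and 3.24 FPKM, and Cks2, a subunit of cyclin-dependent kinases, at 652 and 86.2 FPKM. Of the genes that MYC is known to repress, 2 were higher and 2 lower of 13 listed in HSC (15.4% each, beside 19.3% and 18.04% of all genes). In CLP 3 were higher and 2 lower of 11 (27.3% and 18.2%, beside 26.6% and 23.4%). Cdkn1a, a cell cycle inhibitor, was at 17.7 and 8.57 FPKM in the HSC libraries of WT and labelled GRK6-/-, and at 22.9 and 93.8 FPKM in the CLP libraries. Gadd45a, a stress-induced growth arrest gene, was at 27.4 and 46.5 FPKM in HSC and at 0.414 and 19.5 FPKM in CLP. Cebpa, a driver of myeloid differentiation, stood in the opposite order in CLP, at 26.6 and 6.92 FPKM, as did Ndrg1, at 19.8 and 14.2 FPKM.

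Of 10 targets of MondoA and MLX, 1 was past 2-fold higher and 3 lower in HSC (10.0% and 30%, beside 19.3% and 18.04% of all genes), and 2 were higher and 2 lower in CLP (20.0% and 20.0%, beside 26.6% and 23.4%). Txnip, the best known of them and a brake on glucose uptake, was at 101, 62.4, 62.3 and 121 FPKM in library order. Its relatives Arrdc3 and Arrdc4 were at 1.6 and 6.19 FPKM in WT CLP and at 13.3 and 26.4 FPKM in the library labelled GRK6-/- CLP. Pfkfb3, an activator of glycolysis, was at 13.2 FPKM in WT CLP and 4.56 FPKM in the library labelled GRK6-/- CLP. Arrdc3, Arrdc4 and Pfkfb3 were named for their high or low ratios in CLP, so their sides were set by the choice.

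The genes whose order over the 4 libraries was closest to that of Myc were Armc8, Steap3, Cby1, Zfp653 and Mecr. Closeness was the largest difference between the centred log2(FPKM + 1) values of a gene and of Myc in any of the 4 libraries, over the 8246 genes listed in all of them, and it ran from 0.17 for Armc8 to 0.27 for Mecr. Armc8, a subunit of a ubiquitin ligase, was at 2.87 FPKM in WT HSC, 10.1 FPKM in the library labelled GRK6-/- HSC, 7.81 FPKM in WT CLP and 1.15 FPKM in the library labelled GRK6-/- CLP. Steap3, an iron reductase, was at 3.06, 9.81, 5.78 and 1.32 FPKM in library order. With 4 libraries and so many genes, close matches are easy to find, and this is a description only.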

How the data were processed

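The authors aligned reads of 4 libraries to mm9 and computed 1 FPKM per gene with the Tuxedo suite, and the deposited FPKM values are normalised for transcript length and mapped fragments. The submitters' processing notes name TopHat 1.4.0. Other versions and settings, strandedness included, are not given in the sources used here. The FPKM tables hold no counts, so no count model was run.

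FPKM of rows that share a symbol were added up, absent genes were set to 0, and 333 symbols in rows naming several genes were left out, a choice made after seeing the files. Log2 ratios used FPKM + 1. Fragments were estimated from the steps of values up to 0.3 FPKM, of which 74.4% to 82.5% lay within 10% of a step. On simulated data 12 of 12 depths came back within 10%. Transcript models were GENCODE vM1. Members and gene lists were chosen with earlier results of these data known. Genes named from the 9 lists were the 2 highest and 2 lowest log2 ratios among genes of at least 10 FPKM in 1 library of a pair, of which the text gives a part; Txnip, Cdkn1a and Gadd45a were followed over more libraries after their values were seen. The 5 genes closest to Myc were taken by the same plan. Alternatives were another pseudocount, rescaling to the median gene, the highest row per symbol, a filter of 1 FPKM, a log2 threshold of 2 and other antagonist sums. Computations ran in Python 3.11.15 with pandas 2.3.3, scipy 1.17.1, numpy 2.4.6 and matplotlib 3.10.9.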

Additional observations from a re-analysis of the deposited data

Results flagged for a closer look

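For 3 network genes the log2 ratio of the library labelled GRK6-/- over WT had opposite signs in the 2 populations and differed by at least 2. Myc was at 1.63 in HSC and −1.89 in CLP, a difference of 3.52. Max was at 0.58 and −1.46, a difference of 2.04. Mycn was at −0.06 and 4.14, a difference of 4.20 that depends on the missing row in WT CLP. With 1 library per group the difference was not tested for any of them.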

How the results depend on the processing

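With 1 library per group no replicate could be left out. No paired analysis was possible because no result comes from a test. Of 71 alternative values of the members' genotype log2 ratios, 67 moved by less than the mean arm of their counting interval (1 log2 unit where a row was missing), 4 by more, and 0 changed sign. Many of these values could not move. The highest row and the filter of 1 FPKM left each member's ratio as it was, and rescaling shifted all members of a comparison alike. The 4 that moved by more came from the pseudocount of 0.1, which cannot turn the sign of a single gene. These counts are thus no measure of robustness. Of 54 list medians 2 changed sign, both with at least 1 FPKM required in both libraries, namely the MYC-repressed genes in HSC (0.15 to −0.18) and the cell cycle targets in CLP (0.20 to −0.08). With a pseudocount of 0.1, Mycn, Mxd3, Mxd4 and Mga in CLP stood at log2 7.39, −8.46, −9.50 and 2.69. At a log2 threshold of 2, 0 of 9 members were past it in HSC beside 12.4% of all genes and 4 of 10 in CLP beside 24.8%. With at least 1 FPKM in both libraries, 5 of the 6 members left were past 2-fold in CLP beside 40.5%. The log2 antagonist ratio between genotypes was −0.69 in HSC and −1.57 in CLP with the MXD-type genes alone, and −1.28 in CLP without Mga. Under 2 alternatives chosen after seeing the data, the CLP value turned positive, to 2.26 with the 4 antagonists listed in all libraries and to 0.61 with Myc alone below the line. Its direction in CLP thus rests on Mxd3 and Mxd4, which 1 library lists, and on Mycn, which the other lists. Depth limits what can be said of Mxd1 outside WT CLP, at 11 to 19 fragments, of Mxd4 there, at 0 or 1, and of genes without a row.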
